A study of Mus musculus with 3 samples.

Results

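T lymphoid nuclei were nuclei from mouse hearts whose open chromatin was enriched over 13 marker genes of T cells and thymocytes: Cd3e, Cd3d, Cd3g, Cd8a, Cd8b1, Cd4, Rag1, Dntt, Themis, Arpp21, Lck, Bcl11b and Tcf7. They were chosen among barcodes with at least 1000 unique fragments on chromosomes 1 to 19 and X and at least 4-fold more fragment ends within 50 bp of transcription start sites per base than 1900 to 2000 bp away. A member held at least 4 fragments over the bodies and 2 kb upstream of the 13 genes, and these were at least 3 times as large a share of its fragments as of all fragments of the vehicle library. The rule took 928 of 6548 nuclei of the vehicle and sunitinib libraries, and of 6560 in the whole series. Of these, 115 of 2692 nuclei came from vehicle (4.27%, with an exact 95% binomial interval, after Clopper and Pearson, of 3.54 to 5.11) and 813 of 3856 from sunitinib (21.1%, 19.8 to 22.4).

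The hearts came from wild-type (WT) mice given vehicle, sunitinib or sunitinib with Yoda1, and nuclei were isolated from snap-frozen tissue for single-nucleus multiome sequencing (RNA and ATAC from the same nuclei). Sunitinib is a cancer drug that blocks receptor tyrosine kinases, and Yoda1 opens the stretch-gated channel PIEZO1. All titles carry 3 months, and the labels do not say whether this is an age or a time of treatment, how many mice went into a library, or how the agents were given. There was 1 library per group, so differences between libraries have no spread between animals to be read against, and every interval is for counting error alone. Only the ATAC fragments were used, and a value is the number of fragments over a gene or interval per 1000000 fragments of the same nuclei, written as counts per 1000000 (CPM).

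Thymocytes are T cell precursors that mature in the thymus. They first rearrange the T cell receptor beta gene in a CD4-CD8- stage, then carry both co-receptors CD4 and CD8 while the RAG recombinase joins alpha gene segments, and are selected into CD4 or CD8 cells that leave for blood and tissues. Rag1, Dntt (which adds bases at the joins) and Arpp21 are known as genes of the precursor stages, while the CD3 chains, the kinase Lck and the factors Bcl11b and Tcf7 are used by thymocytes and mature T cells alike.

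The fragment totals were 18704581 for vehicle, 23653823 for sunitinib and 583792 for sunitinib plus Yoda1. In the last library, sequenced to 209296546 read pairs against 210143978 for sunitinib, 12 barcodes passed and 0 were members, where 3 nuclei, the limit taken for a count of 0, would be 25%, so it entered no comparison. Members summed to 375022 fragments under vehicle and 2428045 under sunitinib. Their median depth was 2305 and 2545 fragments, against 2154 and 2309 in the other nuclei, and their median start site enrichment was 24.8 and 25.2, against 25.1 and 25.5. The 5 vehicle members with over 10000 fragments supplied 24.1% of the vehicle members' fragments, and 8 such sunitinib members 4.73%. The passing nuclei of both libraries shared 22 barcode sequences, and the T lymphoid nuclei shared 0.

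Marker fragments, which chose the nuclei, were 0.210% of the members' fragments under vehicle and 0.226% under sunitinib. Members had a median of 5 and 6 marker fragments. At the threshold, 42 vehicle and 211 sunitinib members had exactly 4, and 61 and 211 nuclei with 3 marker fragments passed the share but not the count. The lowest member stood at 3.04 and 3.05 times the share of all vehicle fragments, and the highest nucleus left out with at least 4 marker fragments at 2.97 and 2.99 times. In the nuclei left out, marker fragments were 0.669 times that share under vehicle and 1.04 times under sunitinib. The other nuclei of the sunitinib library therefore still held more marker fragments, and ratios against them are also given against nuclei with 0 marker fragments (1515 under vehicle and 1323 under sunitinib).

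The share of T lymphoid nuclei was read by depth. Among nuclei of 1000 to 2000 fragments it was 3.99% (2.97 to 5.25) under vehicle and 15.6% (13.8 to 17.5) under sunitinib. Among those of 2000 to 4000 fragments it was 4.88% (3.65 to 6.39) and 29.9% (27.6 to 32.3), and at 4000 or more 3.63% (2.09 to 5.83) and 15.6% (13.2 to 18.1). With every nucleus thinned to 1000 fragments, 30 vehicle nuclei (1.11%, 0.753 to 1.59) and 196 sunitinib nuclei (5.08%, 4.41 to 5.82) still had 4 marker fragments. Under sunitinib the middle depths had the higher share beyond counting error, and under vehicle the intervals of the 3 depths overlapped. At each depth the sunitinib share was the higher, and the intervals of the libraries did not overlap. Barcodes under 500 fragments, which were not called nuclei, had 0.0382% of their fragments over the markers under vehicle and 0.0642% under sunitinib.

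The promoters of marker genes, and of the gene that ranked first among promoters outside the markers, are shown as the regulatory sequence whose fragments are counted next. The sequences are the 250 bases before the RefSeq start (GRCm38.p6, the patch release of mm10), 5′ to 3′ on the gene's strand, for the rule markers Rag1 (minus strand, chr2:101649533-101649782), Cd3d (plus, chr9:44981536-44981785), Cd3g (minus, chr9:44980432-44980681) and Dntt (plus, chr19:41029025-41029274) and for Trat1 (minus, chr16:48772063-48772312). Trat1, the gene outside the markers, encodes an adaptor of the T cell receptor. No annotated exon overlaps the stretches. Capitals mark matches, on either strand, to letters known for RUNX, ETS, TCF and LEF, E protein or GATA factors, which are spelled out beside their shares of all promoters. The Rag1 stretch holds an ETS and a RUNX match, that of Cd3d an ETS and a TCF and LEF match, that of Cd3g a GATA match, that of Trat1 a TCF and LEF match, and that of Dntt none.
Rag1: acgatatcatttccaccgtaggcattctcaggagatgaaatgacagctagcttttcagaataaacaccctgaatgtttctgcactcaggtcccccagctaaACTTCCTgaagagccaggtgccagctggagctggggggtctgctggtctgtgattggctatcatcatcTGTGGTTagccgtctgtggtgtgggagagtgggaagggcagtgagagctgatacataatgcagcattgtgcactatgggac
Cd3d: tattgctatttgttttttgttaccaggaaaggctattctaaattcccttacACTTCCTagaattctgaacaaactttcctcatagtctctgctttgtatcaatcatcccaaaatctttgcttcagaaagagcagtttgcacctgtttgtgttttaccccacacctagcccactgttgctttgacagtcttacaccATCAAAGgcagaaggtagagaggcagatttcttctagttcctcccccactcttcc
Cd3g: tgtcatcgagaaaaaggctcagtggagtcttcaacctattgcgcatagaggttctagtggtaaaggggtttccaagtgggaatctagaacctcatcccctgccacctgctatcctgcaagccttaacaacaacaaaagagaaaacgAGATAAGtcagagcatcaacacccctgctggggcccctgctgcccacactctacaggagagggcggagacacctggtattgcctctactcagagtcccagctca
Dntt: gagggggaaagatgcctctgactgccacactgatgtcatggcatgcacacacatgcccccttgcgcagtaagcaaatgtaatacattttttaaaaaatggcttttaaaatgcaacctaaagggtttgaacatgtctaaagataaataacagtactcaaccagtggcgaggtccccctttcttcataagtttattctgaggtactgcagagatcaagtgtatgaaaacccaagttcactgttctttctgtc
Trat1: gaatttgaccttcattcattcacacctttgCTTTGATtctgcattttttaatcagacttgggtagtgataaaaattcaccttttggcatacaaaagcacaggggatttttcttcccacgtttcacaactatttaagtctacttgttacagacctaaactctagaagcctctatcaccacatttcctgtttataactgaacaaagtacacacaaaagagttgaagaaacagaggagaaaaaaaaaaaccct

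Over the 300 bases that end 50 bases past the start, the Rag1 promoter had 7 fragments in vehicle T lymphoid nuclei and 39 in sunitinib ones, against 7 and 24 in the far more numerous other nuclei. Per fragment sequenced this was a log2 ratio of 4.39 (2.65 to 6.13) and 2.80 (2.04 to 3.61). The Cd3g promoter had 5 and 58 fragments in T lymphoid nuclei and 5 and 16 in the others (4.39, 2.27 to 6.51, and 3.93, 3.15 to 4.86). Cd3d and Cd3g, chains of the CD3 complex, lie head to head, so that fragments near their starts can count for both genes. The Cd3d promoter had 2 and 34 against 2 and 20 (4.39, 0.60 to 8.17, and 2.86). The promoters of Rag1, Cd3d, Cd3g and Dntt lie in the marker windows that chose the nuclei, so their values are a description. The Dntt promoter had 3 and 27 fragments against 2 and 5 (4.87, 1.85 to 8.55, and 4.43, 3.14 to 6.27). The Trat1 promoter had 2 and 20 against 3 and 8 (3.90, 0.22 to 6.93, and 3.38, 2.18 to 4.82). In nuclei without a marker fragment, the 4 marker promoters had 0 fragments by construction, and that of Trat1 had 0 under vehicle and 1 under sunitinib.

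Each marker was next read in nuclei chosen with the other 12 markers, a choice that does not use it. Cd3d and Cd3g were read in nuclei chosen without either, with 11 markers, because their windows overlap; this was decided after seeing the data. All 13 markers were higher than in the other nuclei of the same library in both libraries, with every interval above 0. The log2 ratios lay between 0.96 and 3.28 under vehicle and between 1.26 and 2.52 under sunitinib.

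**Figure D1:**
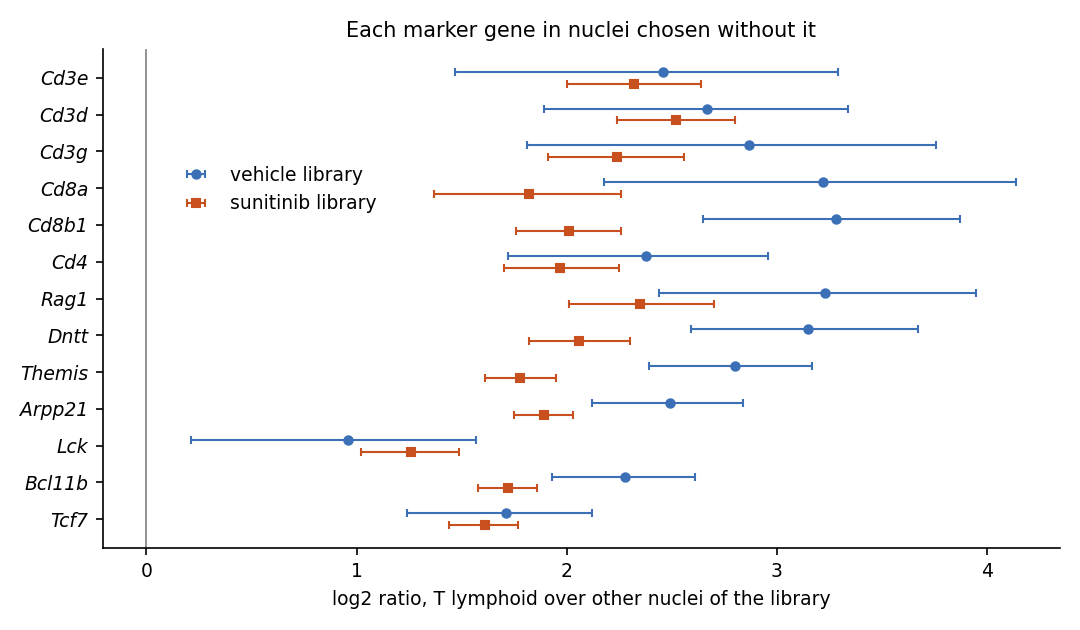
The log2 ratio (horizontal axis) of each marker gene in T lymphoid nuclei chosen with the other 12 markers (11 for Cd3d and Cd3g, both left out) over the other nuclei of the same library, for the vehicle and sunitinib libraries. Points are ratios and bars 95% conditional exact intervals for counting error; all 26 intervals lie above 0, and Lck is the lowest in both libraries (0.96 and 1.26).

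Rag1 (chr2:101638282-101649501) stood at 62.7 CPM in 112 vehicle nuclei chosen without it and at 62.9 in 804 sunitinib nuclei, against 6.75 and 12.3 in the other nuclei. The log2 ratios were 3.23 (2.44 to 3.95) and 2.35 (2.01 to 2.70), and the level of the T lymphoid nuclei hardly differed between libraries, while that of the other nuclei was higher under sunitinib. Dntt (chr19:41029275-41059525) had 118 and 117 CPM against 13.4 and 28.1 (3.15 and 2.06). Arpp21 (chr9:112065091-112235938), which binds RNA and marks CD4+CD8+ thymocytes, had 248 and 335 against 44.4 and 90.4 (2.49 and 1.89).

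Of the receptor complex, Cd3e (chr9:44998740-45009627) had 39.0 and 74.4 CPM against 7.25 and 14.9 (2.46 and 2.32), and Cd3d 62.7 and 105.8 against 10.04 and 18.4 (2.67, 1.89 to 3.34, and 2.52, 2.24 to 2.80). Cd3g had 37.0 and 69.0 against 5.21 and 14.6 (2.87, 1.81 to 3.76, and 2.24, 1.91 to 2.56). With only the gene itself left out, Cd3d was at 2.89 and 2.77 and Cd3g at 3.03 and 2.64. The co-receptor gene Cd8b1 had 96.0 and 109 against 9.93 and 26.9 (3.28 and 2.01), Cd8a 38.5 and 33.0 against 4.202 and 9.37 (3.22 and 1.82), and Cd4 76.7 and 86.5 against 14.9 and 22.0 (2.38 and 1.97). Both Cd4 and Cd8 chain genes were thus more accessible in T lymphoid nuclei of either library than in the rest. Themis, which tunes receptor signals during selection, had 208 and 226 against 30.1 and 65.8. Of the remaining markers, Bcl11b, a factor that commits cells to the T lineage, had 273 and 300 against 56.5 and 91.0 (2.28 and 1.72), Tcf7 142 and 213 against 43.9 and 69.8 (1.71 and 1.61), and Lck 58.3 and 99.3 against 30.7 and 41.6 (0.96 and 1.26).

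Nuclei chosen without Rag1, Dntt and Arpp21 numbered 75 under vehicle and 580 under sunitinib, and 66 and 559 of them were members. In these nuclei Rag1 stood at 64.2 and 64.8 CPM, against 7.195 and 14.4 in the others (log2 3.18 and 2.17). Dntt stood at 101.3 and 119, against 14.8 and 32.0 (2.80 and 1.89), and Arpp21 at 233 and 339, against 45.7 and 95.6 (2.36 and 1.82). Genes of the precursor stages were therefore higher in both libraries also where they had no part in the choice. Of the members, 21 vehicle and 141 sunitinib nuclei had no fragment over any of these 3 genes.

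These nuclei without a Rag1, Dntt or Arpp21 fragment were compared with the remaining members over the immature and the mature genes that are no markers. Over the immature genes they had 1200.6 CPM (896.6 to 1574.4) against 1706.3 (1568.6 to 1852.9) under vehicle, and 1805.9 (1663.6 to 1957.1) against 1773.1 (1716.6 to 1831) under sunitinib. Over the mature and naive T cell genes they had 1939.4 (1546.9 to 2401.1) against 1368.7 (1245.7 to 1500.6) under vehicle and 1611.3 (1477 to 1754.5) against 1629.7 (1575.6 to 1685.3) under sunitinib. Under sunitinib the intervals overlapped for both lists. Under vehicle, in 21 nuclei, they overlapped for the immature genes and lay apart for the mature genes, which were higher, and the nuclei were also shallower (median 1772 against 2345.5 fragments).

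Nuclei chosen without the co-receptor genes numbered 110 and 726. A fragment over Cd8a or Cd8b1 was found in 23.6% of these under vehicle (16.1 to 32.7) and 33.2% under sunitinib (29.8 to 36.8), against 3.76% and 10.1% of the other nuclei. A fragment over Cd4 was found in 16.4% (10.0 to 24.6) and 22.6% (19.6 to 25.8), against 4.07% and 6.84%. Both were found in 7 nuclei (6.36%, 2.60 to 12.7) and 59 nuclei (8.13%, 6.24 to 10.4), against 0.426% and 1.41% of the others. The median depth was 2345.5 and 2643.5 fragments in the chosen nuclei and 2147.5 and 2284.5 in the others, and at this depth a nucleus without a fragment over a gene cannot be called negative for it.

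No antigen receptor segment was among the markers, so the receptor loci give a reading of their own. The T cell receptor alpha and delta genes share a locus on chromosome 14 in which V segments lie before the delta segments, the J alpha array and the constant gene Trac. From Trav1 to Trdv4 (chr14:52427928-54075515) T lymphoid nuclei had 0.387 CPM per kb under vehicle (0.339 to 0.439) and 0.461 under sunitinib (0.440 to 0.483). The other nuclei had 0.0876 and 0.133, and nuclei without a marker fragment 0.0637 and 0.0751. The log2 ratio to the other nuclei was 2.14 (1.94 to 2.35) and 1.79 (1.70 to 1.88), and to nuclei without a marker fragment 2.60 and 2.62. The 500 kb before Trav1 and after Trac were at 0.42 and 0.43 under vehicle and 0.43 and 0.49 under sunitinib against the other nuclei, so the difference was concentrated between the flanks.

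Within the V array, cut into 3 equal parts, the part farthest from the J segments was at 1.31 (0.71 to 1.82) and 1.62 (1.40 to 1.84), the middle part at 2.64 (2.19 to 3.06) and 2.14 (1.95 to 2.33), and the nearest part at 2.24 (1.96 to 2.49) and 1.72 (1.60 to 1.83). In level, the nearest part was the highest, with 0.719 and 0.815 CPM per kb against 0.155 and 0.223 in the farthest. The interval from Trdd1 to Trdc, which is cut out when V and J alpha segments join, had 14 and 102 fragments in T lymphoid nuclei (2.33, 1.33 to 3.14, and 1.78, 1.39 to 2.17) and was not lower than in the other nuclei. The J alpha array from Traj61 to Traj1 had 2.42 and 2.68 CPM per kb against 0.613 and 0.819 in the others (1.99, 1.55 to 2.39, and 1.71, 1.52 to 1.90). Its 5′ part was at 2.61 and 1.97, and its 3′ part at 1.38 and 1.47.

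**Figure D2:**
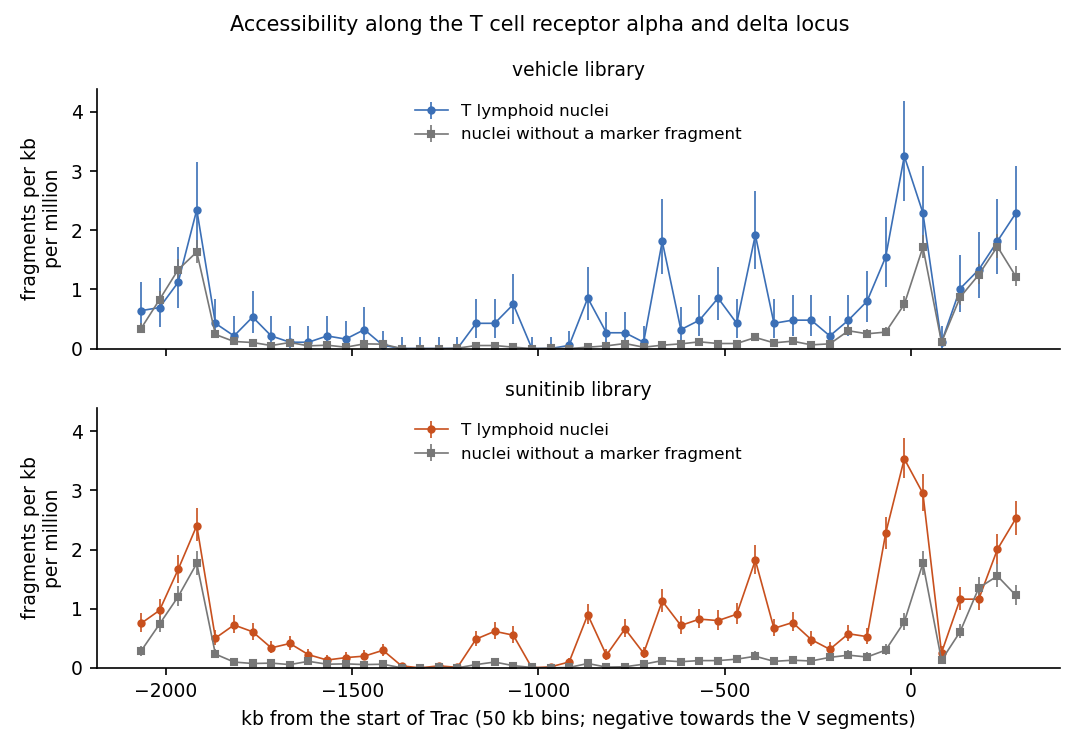
Accessibility in CPM per kb (vertical axis) in 50 kb bins along the T cell receptor alpha and delta locus, by distance in kb from the start of Trac, in T lymphoid nuclei and in nuclei without a marker fragment of each library. Bars are exact Poisson 95% intervals; T lymphoid nuclei are highest in the bin centred 17.6 kb before Trac (3.25 under vehicle and 3.53 under sunitinib).

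At the beta locus on chromosome 6, the stretch from Trbd1 to Trbc2, which holds the D, J and constant segments, had 4.75 CPM per kb (3.13 to 6.91) under vehicle and 6.03 (5.27 to 6.88) under sunitinib, against 0.497 and 1.18 in the others. The log2 ratio was 3.27 (2.54 to 3.94) and 2.35 (2.07 to 2.64). The V beta array was at 1.68 and 1.52, and the trypsinogen-containing stretch between Trbv30 and Trbd1 at 1.12 (0.24 to 1.83) and 0.46 (0.11 to 0.79). The 500 kb before Trbv1 were at 0.47 (0.03 to 0.86) and 0.32 (0.15 to 0.49). The 500 kb after Trbv31 were at 0.93 (0.46 to 1.34) and 0.99 (0.81 to 1.17), so the difference reached past the beta segments on that side. The gamma locus was at 2.40 and 1.82. Of the immunoglobulin loci, the heavy chain locus was higher in T lymphoid nuclei (1.45, 1.27 to 1.61, and 1.27, 1.20 to 1.34), while the kappa light chain locus was at -0.00 (-0.32 to 0.28) and -0.21 (-0.35 to -0.08). Between libraries, the T lymphoid levels over these loci differed by a log2 ratio of 0.25 (0.06 to 0.45) for the V alpha array, 0.14 (-0.25 to 0.57) for the J alpha array and 0.32 (-0.24 to 0.98) for Trbd1 to Trbc2, sunitinib over vehicle.

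Across genes, T lymphoid and other nuclei were compared within each library as a description, since the markers come from the same nuclei. Of 10615 protein-coding genes outside the markers with at least 200 fragments in each library, 220 (2.07%) were at least 2-fold higher in T lymphoid nuclei in both libraries and 687 (6.47%) at least 2-fold lower. The median log2 ratio over all these genes was 0.10 under vehicle and 0.12 under sunitinib. Of 283 genes at least 2-fold higher in the sunitinib library, 282 were higher in the vehicle library and 220 at least 2-fold. While 0 genes passed 2-fold in opposite directions, 2246 had opposite signs of any size. The ratios of the libraries had a Pearson r of 0.81 across genes, which share the annotation and the way nuclei were chosen.

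**Figure D3:**
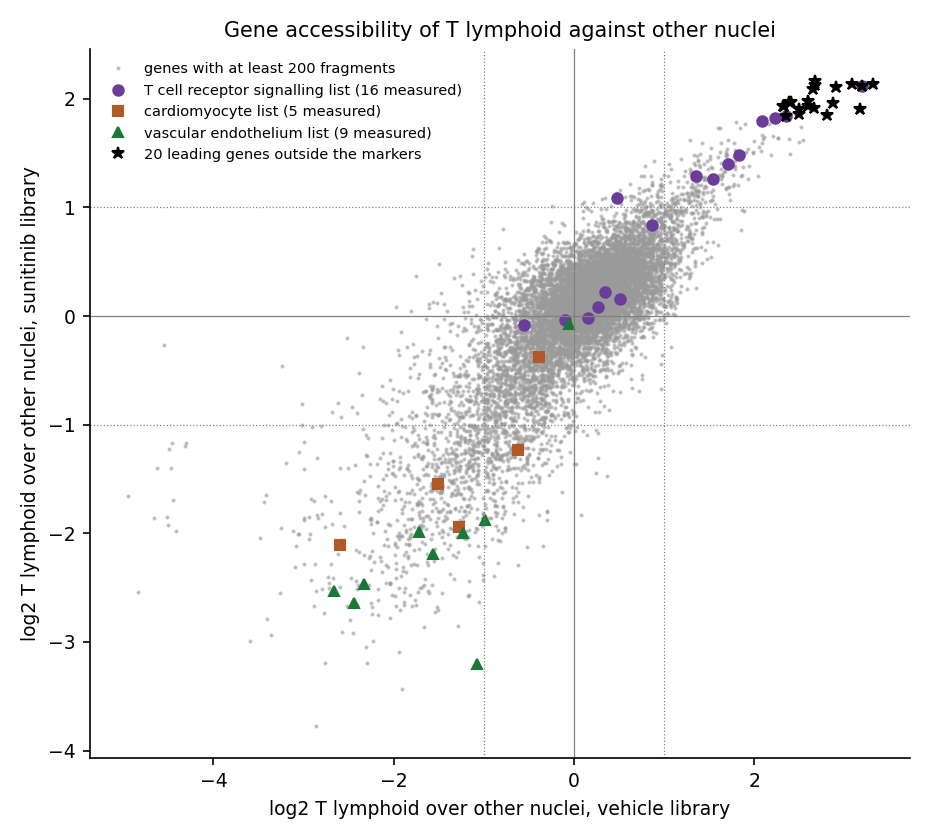
Log2 ratio of T lymphoid over other nuclei for each gene in the vehicle library (horizontal axis) and the sunitinib library (vertical axis), with dotted lines at 2-fold. The 20 leading genes outside the markers sit at the upper right; in the sunitinib library their ratios are 1.84 to 2.16, and the 5 cardiomyocyte and 9 endothelial genes measured lie below 0 in both libraries.

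The 20 leading genes outside the markers were ranked among genes with at least 30 T lymphoid fragments in each library. This filter favours genes that are high in these nuclei, and it is not the 200 fragments used above. Some of the 20 are therefore not among the 10615 genes, such as Slamf6 with 33 T lymphoid and 93 other fragments under vehicle. The 20 included regulators of receptor signalling and lymphocyte surface proteins. Sla2, an adaptor that dampens T cell receptor signals, had 107 and 124 CPM in T lymphoid nuclei against 17.0 and 27.8 in the others (log2 2.67, 2.11 to 3.17, and 2.16, 1.92 to 2.39). Its window overlaps that of Rab5if. The related adaptor gene Sla had 184 and 248 against 37.0 and 64.9 (2.32 and 1.93); its window overlaps Tg. Selplg, the selectin ligand PSGL-1, had 115 and 118 against 13.6 and 26.7 (3.08 and 2.14). The SLAM family receptors Slamf6 (88.0 and 98.0 against 11.9 and 22.8) and Slamf1 (88.0 and 77.4 against 12.1 and 19.9) were also among the 20.

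The same group held regulators known from thymocytes. Satb1, a chromatin organizer of thymocytes, had 293 and 342 CPM against 52.2 and 94.4 (2.50 and 1.86). Gfi1, a transcriptional repressor, had 88.0 and 102 against 17.7 and 26.8 (2.33 and 1.93), Rhoh, a GTPase needed for receptor signalling, 128 and 161 against 21.4 and 40.7, and Lcp2, the adaptor SLP-76, 131 and 142 against 25.9 and 39.5. Tctex1d1 (131 and 146 against 13.3 and 33.3), Tdrd5, St8sia1, Slc6a19, Syt13, Emb, Chdh and Tmprss4 were in the group too, with log2 ratios of 1.85 to 2.14 under sunitinib and 2.38 to 3.31 under vehicle. B230118H07Rik was also among the 20, and its window contains Rag1 and Rag2, so its fragments are in part theirs. The windows of Lcp2 (4930469K13Rik), Slc6a19 (Slc6a18), Emb (Gm17509), Chdh (Il17rb and Cacna1d) and Tmprss4 (BC049352) also overlap those of the genes in brackets.

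Of all 10615 genes, 2.07% were past 2-fold higher and 6.47% past 2-fold lower in both libraries, and the counts of the lists that follow stand beside these shares. Among the genes of T cell receptor signalling, of 23 listed 16 had enough fragments, and 8 of these were at least 2-fold higher in both libraries and 0 lower, with a median log2 ratio of 1.11 and 1.17. Beside Lcp2, these included Ptprc, the phosphatase CD45 (192 and 248 CPM against 41.1 and 70.2, log2 2.23 and 1.82), Grap2 (155 and 194 against 36.9 and 55.5, 2.08 and 1.80), Prkcq (181 and 217 against 51.3 and 77.4, 1.83 and 1.48) and the receptor zeta chain Cd247 (261 and 316 against 90.4 and 132, 1.54 and 1.26). Zap70, the kinase that binds the zeta chain, had 50.7 and 57.7 against 11.5 and 17.6 and fell short of 200 fragments. The widely used Fyn (0.16 and -0.02) and Plcg1 (0.27 and 0.08) and the activation-induced Nr4a1 (-0.56 and -0.08) and Nr4a3 (-0.10 and -0.04) did not share the difference.

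Among the T lineage transcription factors 20 of 22 had enough fragments, 7 were at least 2-fold higher in both libraries and 0 lower, and the median was 0.59 and 0.52. Ikzf1 (187 and 261 CPM against 40.3 and 74.7, log2 2.22 and 1.80), Lef1 (181 and 223 against 38.6 and 63.2, 2.24 and 1.82), Ikzf3 (2.09 and 1.67), Runx1 (1.77 and 1.46), Tox (1.64 and 1.29) and Nfatc3 (1.57 and 1.26) were the highest beside Satb1. Gata3 was at 0.86 and 1.02, Ets1 at 0.59 and 0.53, Tcf12 at 0.40 and 0.51 and Tcf3 at 0.07 and -0.06. Of the factors known to be induced or activated by receptor signals, Egr1 was at -0.53 and -0.27, Egr2 at 0.77 and 0.57, Egr3 at -0.03 and -0.15, Id3 at -0.39 and -0.55, Nfatc1 at -0.30 and -0.06 and Nfatc2 at -0.27 and 0.01. Myb, a factor of precursors, had 82.7 and 125 against 19.4 and 37.2 (2.11 and 1.75).

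The lists of maturation stages were read next. Of 17 immature thymocyte genes 9 had enough fragments, 4 were at least 2-fold higher in both libraries (Arpp21, which is a marker, and Satb1, Aqp11 and Mns1) and 0 lower, with a median of 1.14 and 0.92. Below that depth, Ptcra, the surrogate alpha chain, had 21.3 and 22.7 CPM against 4.08 and 5.26 (2.45 and 2.11), Cd1d1 37.3 and 39.1 against 8.67 and 14.2 (2.15 and 1.47), Cd24a 48.0 and 62.6 against 10.6 and 16.8 (2.21 and 1.90) and Rag2 58.7 and 47.8 against 20.2 and 29.7 (1.57 and 0.69). Rmnd5a was at 0.88 and 0.62, Slc7a11 at 1.14 and 0.92, Plxnd1 at 0.31 and 0.03, Ets2 at 0.20 and -0.03 and Rora at -0.61 and -0.41.

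Of 14 genes of earlier CD4-CD8- progenitors, all had enough fragments, 3 were at least 2-fold higher in both libraries and 2 lower, and the median was -0.03 and -0.16. The 3 were Il2ra (CD25; 120 and 96.0 CPM against 26.7 and 34.5, 2.18 and 1.48), Flt3 (93.3 and 132 against 27.2 and 38.0, 1.80 and 1.79) and Dtx1, a Notch target (1.44 and 1.18). Hhex (-2.06 and -1.91) and Mef2c (-1.16 and -2.44) were the lower ones. Notch1 was at -0.24 and -0.13, Notch3 at 0.89 and 0.76, Kit at -0.75 and -0.50, Hes1 at -0.81 and -0.98, Erg at -0.44 and -0.98, Lyl1 at -0.14 and 0.34, Spi1 at 0.22 and 0.08, Bcl11a at 0.08 and -0.20 and Lmo2 at 0.24 and -1.05.

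Of 20 genes of mature and naive T cells 10 had enough fragments, 3 were at least 2-fold higher in both libraries (Lef1, Stat4 and Cd28) and 1 lower (S1pr1), with a median of 0.14 and 0.13. The homing receptor gene Ccr7 had 58.7 and 44.9 CPM against 17.5 and 19.7 (1.77 and 1.19). S1pr1, the receptor for leaving the thymus that endothelium also carries, had 2 and 29 fragments, or 5.33 and 11.9 CPM against 47.6 and 44.0 (-2.84 and -1.86), and its regulator Klf2 was at -0.84 and -0.53. Cd27 was at 1.91 and 1.28, Cd5 at 1.52 and 1.64, Il7r at 1.64 and 1.10, Cd2 at 1.23 and 1.20, Cd6 at 0.73 and 1.15, Itgb7 at 0.99 and 0.78, Ms4a4b at 1.31 and 1.33 and Ms4a6b at 1.53 and 1.47. Runx3, of the CD8 lineage, was at 0.35 and 0.99, and Zbtb7b, of the CD4 lineage, at -0.01 and -0.31, with Foxo1 at 0.13 and -0.05, Il4ra at 0.15 and 0.31 and Bach2 at -0.14 and -0.17.

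Summed over all genes of a list and set against nuclei without a marker fragment, several lists had like values in both libraries. Chemokine receptors and homing genes were at 1.63 under vehicle and 1.64 under sunitinib, immature thymocyte genes at 0.77 and 0.86 without Rag1, Dntt and Arpp21, regulatory T cell genes at 1.20 and 1.16, receptor signalling genes at 1.16 and 1.20, T lineage factors at 0.97 and 1.05, and mature and naive genes at 0.60 and 0.63. With these 3 markers, which have 0 fragments in the nuclei compared with by construction, the immature list was at 1.25 and 1.31. Cardiomyocyte genes (-1.08 and -1.67), endothelial genes (-1.29 and -1.63) and progenitor genes (-0.08 and -0.28) differed more between libraries. The gut and thymus homing receptor Ccr9 had 184 and 223 CPM against 54.2 and 85.5 in the other nuclei. The cell cycle list was at 0.60 and 0.63, with Ccnd3, the D cyclin that thymocytes use, at 304 and 347 against 187 and 200. The effector and cytotoxic list was at 0.64 and 0.62, where Nkg7 and Klrg1 had 0 fragments under vehicle and 7 and 4 under sunitinib, and Gzmb had 3 and 3. Tbx21, a factor of effector cells, had 14 and 42 fragments, or 37.3 and 17.3 CPM (sunitinib over vehicle -1.14, -2.01 to -0.12). NK, innate lymphoid and gamma-delta genes were at -0.21 and -0.29, with Ncr1, Klrb1c, Klrd1 and Il17a at 0 fragments under vehicle.

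**Figure D4:**
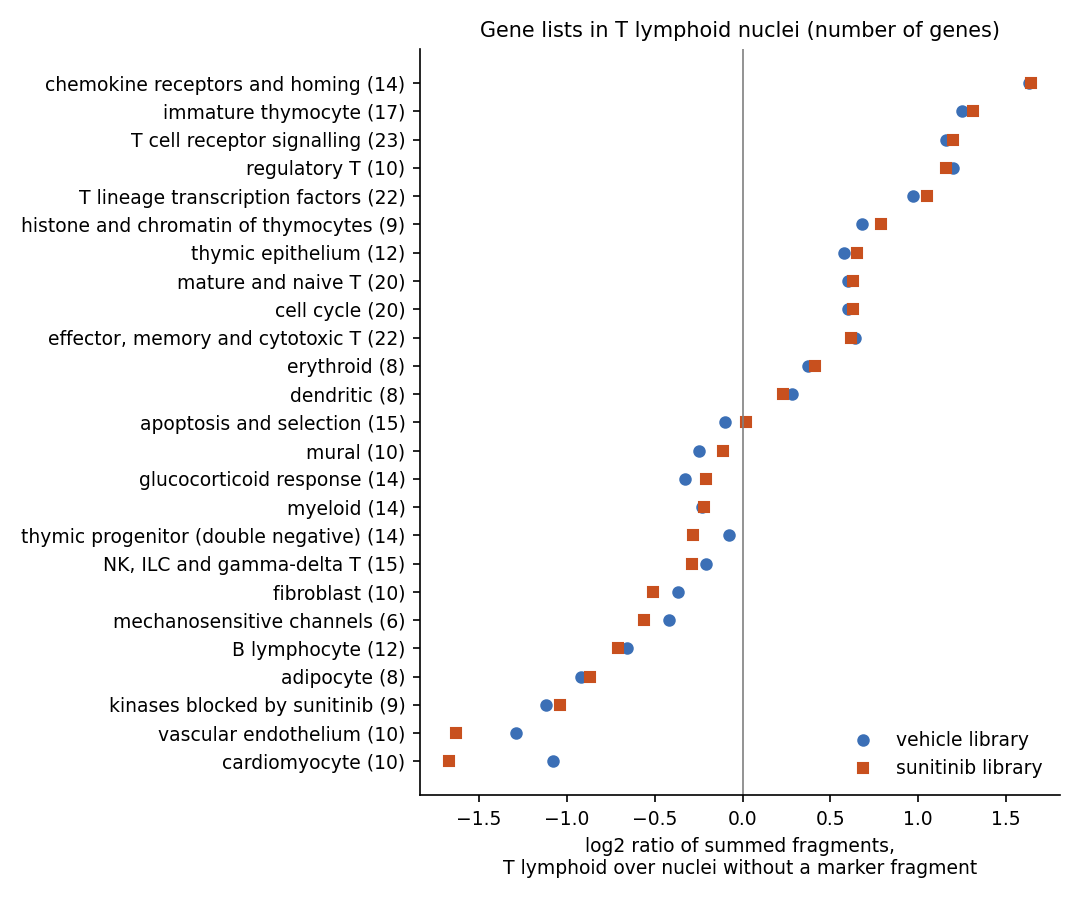
Log2 ratio (horizontal axis) of the fragments summed over each gene list in T lymphoid nuclei over nuclei without a marker fragment, for the vehicle and sunitinib libraries, with the number of genes in brackets. Chemokine receptor and homing genes are the highest (1.63 and 1.64), and endothelial (-1.29 and -1.63), cardiomyocyte (-1.08 and -1.67) and sunitinib kinase genes (-1.12 and -1.04) the 3 lowest; 3 immature genes are also markers that chose the nuclei, and without them that list is at 0.77 and 0.86.

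Markers of other cell types were read in the same nuclei, and cardiomyocyte, endothelial and B lymphocyte genes were lower than in the other nuclei of both libraries. The 10 cardiomyocyte genes summed to 288 CPM (236 to 348) under vehicle and 248 (229 to 269) under sunitinib in T lymphoid nuclei, against 654 and 681 in the other nuclei, with Nppa at 0 fragments under vehicle. The 10 vascular endothelial genes summed to 397 (336 to 467) and 367 (343 to 392) against 926 and 956. Fibroblast genes stood at 269 and 212 against 320 and 293, B lymphocyte genes at 325 and 290 against 501 and 476, and myeloid genes at 397 and 406 against 468 and 455. Of the 14 myeloid genes, C1qa, C1qb, Fcgr1, Lyz2, S100a8 and S100a9 had 0 fragments under vehicle, and C1qb had 0 under sunitinib. The summed dendritic cell genes were not lower, with 203 and 204 CPM against 164 and 169 (0.31, -0.05 to 0.64, and 0.27, 0.12 to 0.42). This sum rested on Flt3, which is in that list too and whose values are given with the progenitor genes. Without Flt3, the rest of the list summed to less than in the other nuclei of both libraries. Erythroid genes were not lower either, with 56 and 72.9 against 43.0 and 48.6 (0.41, -0.33 to 1.02, and 0.59, 0.33 to 0.84). Of these, Hbb-bs and Hbb-bt had 0 fragments in both libraries and Hba-a1 0 under vehicle. Doublets and free chromatin were not removed, and their part in these levels was not tested. The 12 thymic epithelium genes summed to 192 (150 to 242) and 172 (156 to 190) in T lymphoid nuclei and to 130 and 129 in the other nuclei (0.57, 0.19 to 0.90, and 0.42, 0.26 to 0.58). Krt14 was at 0 in both libraries and Krt8 at 0 under vehicle. Only 2 of the 12 genes had at least 200 fragments in each library. Of these 1 was higher in both libraries and 0 at least 2-fold, against 2.07% of all 10615 genes. Y chromosome fragments were 0.0479% and 0.0427% of the T lymphoid nuclei's fragments and 0.0434% and 0.0427% of the others'.

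Accessible windows away from start sites were chosen in the sunitinib library and read in the vehicle library, which had no part in that choice. Of 942 windows of 500 bp, at least 1 kb from any start site and outside the marker genes, with at least 40 T lymphoid fragments, the 300 with the highest ratio of T lymphoid to other nuclei had a median log2 ratio of 2.59 there. Read under vehicle, their median was 3.60, and 295 of 300 (98.3%) were at least 2-fold higher, against 663 of all 942 (70.4%). All 942 windows entered by their T lymphoid fragments, so both shares lean towards windows open in these nuclei. The 300 had a median of 6 vehicle T lymphoid fragments each, so single windows are read there with wide intervals. Chosen under vehicle instead, where 235 windows reached 10 fragments and all were taken, 120 (51.1%) were at least 2-fold higher under sunitinib; these are all windows and not a leading part, so the share stands beside the 70.4% and not the 98.3%. Of the 300 windows 135 (45%) were intronic, 136 (45.3%) intergenic and 29 (9.67%) overlapped an exon, against 31.85%, 56.8% and 11.4% of all 942. In or nearest to a gene of the T cell lists lay 31 (10.3%), against 61 of all 942 (6.48%).

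Among these 31, an intronic window of Cd247 (chr1:165802001-165802500) had 5 vehicle and 57 sunitinib T lymphoid fragments against 11 and 37 in the other nuclei (log2 3.32, 1.37 to 4.89, and 2.72, 2.11 to 3.37). An intergenic window 29819 bp from the start of Lat (chr7:126339501-126340000) had 5 and 44 against 10 and 28 (3.45 and 2.75). Windows nearest to Rag2 (chr2:101563001-101563500, in an intron of B230118H07Rik) and Rasgrp1 (chr2:117438501-117439000) had 3 vehicle fragments each, at 3.11 (0.42 to 5.03) and 2.24 (-0.37 to 3.89). The one nearest to Lef1 (chr3:130947501-130948000) had 1 vehicle fragment (2.80, -3.24 to 5.72) and cannot be read there. Only the nearest start site is given, and no target was tested.

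Promoters were treated in the same way. Of 6875 promoters with at least 20 T lymphoid fragments under sunitinib, the 100 with the highest ratio there had a median of 2.92 under vehicle. There 99 were higher and 93 at least 2-fold, against 1017 of all 6875 (14.8%). Of the 99, Cd27 (0.93), Lef1 (0.93), Tlr12 (0.48) and P2ry10 (0.30) had 0 T lymphoid fragments under vehicle. They were above 0 only through the 0.5 counts added to each side. Many others rested on few vehicle fragments, with intervals that held 0. The letters TGTGGTT of RUNX factors were present, on either strand, in 14% of the 100 promoters (7.87 to 22.4), in 3.22% of the 6875 and in 5.29% of all 32585 promoters of this length. The ETS letters AGGAAGT were in 31% (22.1 to 41.0), 8.68% and 9.38%. The E protein letters CAGCTGT were in 10%, 4.35% and 6.64%, the TCF and LEF letters ATCAAAG in 5%, 2.34% and 3.76%, the GATA letters AGATAAG in 4%, 1.35% and 3.04%, and the AP-1 letters TGACTCA in 5%, 2.43% and 5.23%. The GC-rich letters GGGCGGG of SP and KLF factors went the other way, with 26%, 54.8% and 25.7%, and the MEF2 letters CTAAAAATA were in 0 of the 100, 0.175% and 0.522%. The 100 promoters had a median GC content of 55.3% and the 6875 one of 62.7%, so base composition differs with the motif shares. Matches of different motifs may overlap, and a match is a run of letters and not a bound site.

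The last comparison asked how the chromatin of T lymphoid nuclei differed between sunitinib and vehicle. Fragments of the 813 sunitinib nuclei were set against those of the 115 vehicle nuclei. With 1 library per group, a gene counted as past the threshold above 1.5-fold, with no p-value. Of 2135 genes outside the markers with at least 30 expected fragments in each library, 69 (3.23%) were more than 1.5-fold higher under sunitinib and 26 (1.22%) more than 1.5-fold lower. The median log2 ratio was 0.05, with 1229 genes above 0 and 906 below. The expected number comes from both libraries together, of which the sunitinib library is the larger, so genes that are low there pass less often. With at least 10 expected fragments the split was 717 higher and 617 lower of 10300 genes.

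**Figure D5:**
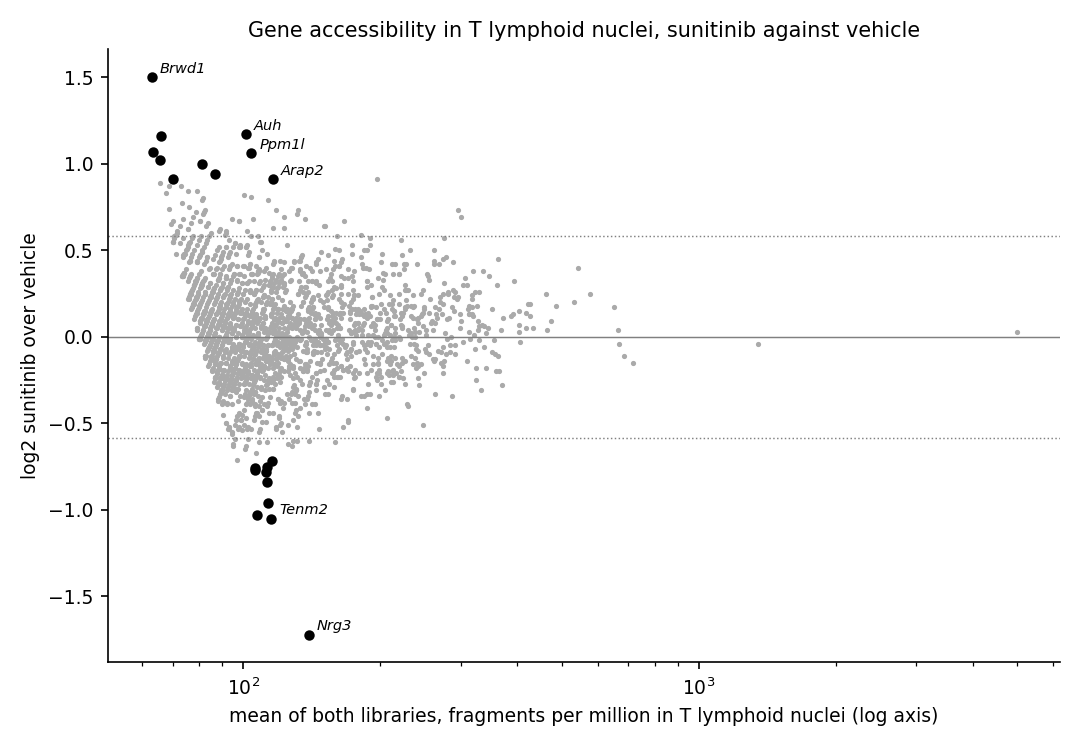
Log2 ratio of sunitinib over vehicle T lymphoid nuclei (vertical axis) against the mean of the libraries in CPM (horizontal log axis) for 2135 genes, with dotted lines at 1.5-fold. Black points are the 10 highest and 10 lowest genes; the scatter is widest among genes with few fragments, and Nrg3 (-1.72) is the lowest.

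Brwd1, a bromodomain protein that reads histone acetylation, had 32.0 CPM in vehicle T lymphoid nuclei (12 fragments) and 93.9 in sunitinib ones (228), a log2 ratio of 1.5 (0.72 to 2.53). The other nuclei had 78.8 and 77.1, so the vehicle T lymphoid nuclei stood lower than the other nuclei and the sunitinib ones did not. Auh, an enoyl-CoA hydratase that binds RNA, had 61.3 and 141 (1.17, 0.59 to 1.88), with 74.3 and 77.2 in the other nuclei. Ehd3, an endocytic ATPase, had 40 and 92.3 (1.16, 0.45 to 2.07), the glycosyltransferase gene Galnt6 40 and 86.5 (1.07, 0.36 to 1.98) and the phosphatase gene Ppm1l 66.7 and 142 (1.06, 0.50 to 1.74).

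Mdfic, whose product binds Piezo channels, had 42.7 and 89.0 CPM (1.02, 0.33 to 1.89), and the other nuclei had 124 in both libraries. Phkb, Tor1aip2, Arap2 and Astn2 completed the 10, with log2 ratios of 1.00, 0.94, 0.91 and 0.91. The windows of Brwd1 (Psmg1), Phkb (Itfg1), Tor1aip2 (Tor1aip1) and Astn2 (Trim32) overlap those of the genes in brackets. None of the 10 is a gene of the T cell lists, and each rested on 12 to 30 vehicle fragments. The ratios of Brwd1, Auh and Ehd3 stayed past 1.5-fold in each setting tried, but not always with enough fragments to count as measured. With at least 6 marker fragments, 0 of the 69 higher genes were measured. There the intervals of Brwd1 (0.73, -0.66 to 3.25) and Auh (0.92, -0.21 to 2.70) held 0, and that of Ehd3 did not (1.68, 0.10 to 5.06). For fragments shorter than a nucleosome's DNA, that of Ehd3 held 0 as well (0.76, -0.19 to 2.10). The other 7 fell short in at least 1 setting, such as Mdfic (0.26) in nuclei thinned to 1000 fragments and Tor1aip2 (0.49) in nuclei of at least 3000 fragments.

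The lowest gene was Nrg3, an ErbB ligand of neurons, with 213 CPM under vehicle and 65.1 under sunitinib (-1.72, -2.11 to -1.31). Of its 80 vehicle fragments, 35 came from a single nucleus of 2967 fragments, and without that nucleus the log2 ratio was -0.91. Tenm2, an adhesion protein of synapses, had 155 and 75.4 (-1.05, -1.47 to -0.59), with 17 of 58 vehicle fragments from a single nucleus and -0.57 without it. The counting intervals leave out this spread between nuclei. Fstl5 had 144 and 70.8 (-1.03, -1.47 to -0.55), and Dcc, a netrin receptor, 149 and 77.4 (-0.96, -1.39 to -0.49). A single nucleus gave 7 of the 54 vehicle fragments of Fstl5 and 9 of the 56 of Dcc. Without it they were at -0.85 and -0.79. For Fstl5 that nucleus had 2967 fragments, as for Nrg3. Gbf1, Nfib, Sgcd, Daam1, Kpna1 and Ccdc12, whose window overlaps that of Nbeal2, lay between -0.84 and -0.72. Each of these 6 fell short of 1.5-fold under at least 1 other choice: without the 5% of nuclei with most fragments Gbf1 was at -0.35 and Kpna1 at -0.40, in nuclei chosen with 10 markers Nfib was at -0.54 and Daam1 at -0.44, without 1 vehicle nucleus Sgcd was at -0.57, and in nuclei thinned to 1000 fragments Ccdc12 was at -0.13. Nfib had 141 and 82.8 in T lymphoid nuclei against 417 and 395 in the others. Under vehicle, the log2 ratio to the other nuclei was -1.55 for Nfib, -0.50 for Daam1 and -0.25 (-0.70 to 0.14) for Sgcd. It was 0.94 for Gbf1, 1.08 for Kpna1 and 0.45 for Ccdc12. A part of other cells' chromatin in these values was not tested.

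Of the 13 rule markers, Cd3g stood at 42.7 and 84.4 CPM (0.94, 0.25 to 1.82), Cd3e at 58.7 and 91.0 (0.60, -0.00 to 1.34) and Tcf7 at 211 and 268 (0.34, 0.01 to 0.70). The other 10 had log2 ratios from -0.18 (Cd8a) to 0.42 (Lck) with intervals that held 0. Rag1 was at 0.07, Dntt at -0.01, Themis at -0.05, Arpp21 at -0.06 and Bcl11b at 0.02. The nuclei were chosen by these fragments, so this is a description.

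The stage lists were read between the libraries next, beside all 2135 genes, of which 1229 were above 0, 3.23% past 1.5-fold higher and 1.22% past 1.5-fold lower. Immature thymocyte genes had a median of 0.11 over 10 measured genes, with 1 past 1.5-fold (Aqp11, an aquaporin, 72.0 and 129 CPM, 0.82, 0.27 to 1.47) and 0 below. Their summed level was 2306.5 CPM (2155.4 to 2465.5) under vehicle and 2424.6 (2363 to 2487.3) under sunitinib, a log2 ratio of 0.07 (-0.03 to 0.18). Of these fragments 247 of 865 and 1571 of 5887 were of the 3 markers Rag1, Dntt and Arpp21, and without them the list stood at 1647.9 and 1777.6, or 0.11 (-0.01 to 0.23). Mature and naive genes summed to 1434.6 (1315.9 to 1561.1) and 1627.2 (1576.9 to 1678.8), or 0.18 (0.05 to 0.31), and within 1 kb of start sites they were at 0.27 (0.02 to 0.54). There 1 of 7 measured genes was past 1.5-fold, namely Runx3 with 61.3 and 102 CPM (0.71, 0.12 to 1.42). Progenitor genes were at -0.13 (-0.29 to 0.04), with 0 of 4 measured genes past 1.5-fold. Mef2c and Lmo2 of that list, with too few expected fragments to enter the count, had 90.7 and 34.6 (-1.40, -1.98 to -0.77) and 40 and 15.7 (-1.38, -2.25 to -0.39). Lower values under sunitinib were also seen for Erg, which blood vessels use, with 139 and 97.6 (-0.52, -0.94 to -0.04).

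Receptor signalling genes summed to 2682.5 CPM (2519.3 to 2853.5) and 3009 (2940.4 to 3078.8), a log2 ratio of 0.17 (0.07 to 0.26), with 12 of 15 measured genes above 0, against 1229 of all 2135, and 0 past 1.5-fold. Ptprc had 192 and 248 (0.36, 0.01 to 0.74), Rasgrp1 77.3 and 108 (0.46, -0.08 to 1.09) and Nr4a1 74.7 and 102 (0.43, -0.11 to 1.07). T lineage factors were at 0.15 (0.07 to 0.24), with 14 of 17 measured genes above 0 and 0 past 1.5-fold. Among them Ikzf1 had 187 and 261 (0.47, 0.12 to 0.86), Myb 82.7 and 125 (0.58, 0.06 to 1.18), Gata3 107 and 125 (0.22, -0.25 to 0.74) and Runx1 424 and 441 (0.05, -0.19 to 0.31). Counted within 1 kb of start sites, both lists were near 0 (-0.02, -0.19 to 0.16, and 0.01, -0.14 to 0.16). The interval of the T lineage factors still held their gene body value of 0.15, and that of receptor signalling ended just below its 0.17. Whether starts and gene bodies differ was not tested.

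The markers of other cells were read beside these values. The log2 ratio of sunitinib over vehicle T lymphoid nuclei was -0.22 (-0.51 to 0.09) for cardiomyocyte genes, -0.12 (-0.37 to 0.15) for endothelial genes, -0.35 (-0.65 to -0.02) for fibroblast genes, 0.03 (-0.22 to 0.29) for myeloid genes and -0.17 (-0.45 to 0.12) for B lymphocyte genes. Their part in the gene differences was not tested.

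Genes tied to the study's agents were read last. The 9 kinases that sunitinib blocks summed to 307 CPM (253 to 368) in vehicle and 347 (324 to 371) in sunitinib T lymphoid nuclei, a log2 ratio of 0.17 (-0.11 to 0.47), against 634 and 621 in the other nuclei. Flt3, a receptor of lymphoid precursors, was the only one of the 9 measured between libraries (93.3 and 132, 0.48, -0.01 to 1.05), and it was higher in T lymphoid than in other nuclei. Kdr had 21.3 and 22.7 CPM, Flt1 69.3 and 56.4, Flt4 8 and 16.1, Pdgfra 18.7 and 19.4, Pdgfrb 26.7 and 33.4, Kit 26.7 and 31.7, Ret 37.3 and 27.2, and Csf1r 5.33 and 8.24. For each of these the interval between libraries held 0. Piezo1, the channel that Yoda1 opens, had 80.0 CPM (30 fragments) and 85.3 (207), a log2 ratio of 0.07 (-0.47 to 0.70), and was lower in T lymphoid than in other nuclei of both libraries (-0.72 and -0.72).

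Lists of stress and selection responses followed. Glucocorticoid response genes were at 0.11 (-0.02 to 0.24), where Nr3c1, the glucocorticoid receptor, had 181 and 244 (0.42, 0.06 to 0.81), Fkbp5 171 and 231 (0.43, 0.06 to 0.83) and Klf13 261 and 198.5 (-0.40, -0.71 to -0.07). Apoptosis and selection genes were at 0.18 (0.02 to 0.34), where Bcl2l1, the survival gene of CD4+CD8+ thymocytes, had 155 and 220 (0.50, 0.12 to 0.92), Bcl2 176 and 155 (-0.19, -0.57 to 0.22) and Bcl2l11 131 and 148 (0.17, -0.26 to 0.64). Zbtb16, a factor of innate-like T cells that stromal cells also use, had 155 and 100.9 (-0.63, -1.03 to -0.18). It is in 2 lists and was the 1 gene past 1.5-fold in each. These were the glucocorticoid list, with 9 measured genes, and the NK, innate lymphoid and gamma-delta list, with 3. Of all 2135 genes, 1.22% were past 1.5-fold lower. None of these differences has a replicate check.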

How the data were processed

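Single-nucleus ATAC fragments of 1 library per group were used, so no paired or replicate analysis exists. The authors deposited fragment lists with a count of read pairs per fragment, made with Cell Ranger ARC 2.0.0 for vehicle and sunitinib and 2.0.2 for sunitinib plus Yoda1 on an mm10 reference, per the file headers. The submitters' processing notes also name Signac. Each fragment was counted once. Nuclei were called again from the fragments by the rule in the report. Start sites were the 5′ ends of protein-coding genes in GENCODE M21, and gene windows were bodies plus 2 kb upstream. Fragments were summed per library and set against the fragments of the same nuclei, with 0.5 counts added to each side of a ratio and conditional exact 95% intervals, which cover counting error only. No doublet caller was run. Named genes were the 10 highest and 10 lowest of the measured genes between libraries, the 20 leading genes against other nuclei, the markers and members of the lists. The 20 had the highest lower ratio of both libraries, among genes with at least 30 T lymphoid fragments in each. The members and lists were chosen with earlier results of these data known. Promoter sequences (RefSeq, GRCm38.p6) replaced a planned motif search in distal windows and were chosen after the data were seen. Python 3.11.15, numpy 2.4.6, pandas 2.3.3, scipy 1.17.1 and matplotlib 3.10.9 were used, and the calculations were tested on simulated data. Some genes of the lists are not reported here.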

Additional observations from a re-analysis of the deposited data

How the results depend on the processing

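No paired analysis was possible because each group has 1 library. The sunitinib share exceeded the vehicle share under each setting. Against 4.27% and 21.1% it was 1.11% and 7.83% with at least 6 marker fragments at 6 times the share, and 2.79% and 15.0% with 10 markers. It was 1.11% and 5.08% with nuclei thinned to 1000 fragments, a setting chosen after seeing the data. So were leaving out Cd3d and Cd3g together and the immature list without its markers. Leaving out 1 vehicle nucleus was also chosen then, for Nrg3 (-0.91), Tenm2 (-0.57), Fstl5 (-0.85), Dcc (-0.79) and Sgcd (-0.57). The 69 genes higher and 26 lower under sunitinib became 38 and 3 in nuclei of at least 3000 fragments, 2 and 0 with 6 marker fragments, 20 and 2 for fragments shorter than a nucleosome's DNA, 10 and 0 when thinned, 5 and 1 within 1 kb of start sites, and 717 and 617 at 10 expected fragments. With 10 markers 75 were higher and 11 lower, with 19 of the 31 higher and 2 of the 8 lower genes still measured past 1.5-fold again. Without the deepest 5% of nuclei they were 63 and 10, with 19 of 25 and 2 of 3. Most of these settings leave fewer genes measured (698, 23, 251, 149, 92, 10300, 1306 and 1119 in this order). Galnt6 (-0.33) and Gbf1 (0.01) changed sign with 6 marker fragments, and Astn2 (-0.37) and Sgcd (1.21) within 1 kb of start sites; the cause was not tested. Within 1 kb of start sites the receptor signalling and T lineage factor lists were at -0.02 and 0.01, and the mature and naive list at 0.27 against 0.18. For the V alpha array the vehicle ratio of 2.14 was 1.92 with 6 marker fragments, and the sunitinib ratio of 1.79 was 2.03 at 3000 fragments, 1.70 with 6 marker fragments, 1.63 with 10 markers, 1.90 for short fragments and 1.54 thinned. For the J alpha array, 1.99 was 2.48 with 6 marker fragments and 2.58 for short fragments, and 1.71 was 1.91 at 3000 fragments. For Trbd1 to Trbc2, 3.27 was 1.05 with 6 marker fragments, 2.40 for short fragments and 2.51 thinned, and 2.35 was 2.71 at 3000 fragments, 1.85 with 10 markers and 1.89 thinned. Against nuclei without a marker fragment, 148 genes were higher (3.29%) and 432 lower (9.61%) of 4497 measured, in place of 220 (2.07%) and 687 (6.47%) of 10615. Of all 235 windows taken in the vehicle library 51.1% were 2-fold higher under sunitinib, against 70.4% of all 942 and 98.3% of the leading 300 the other way.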

Other observations

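The sunitinib plus Yoda1 library had 0.0234% of its fragments over the 13 markers, against 0.0357% in the vehicle and 0.0688% in the sunitinib library, with all barcodes counted. Of the T lymphoid nuclei, 1 vehicle barcode was also that of a passing sunitinib nucleus, and 10 sunitinib barcodes were also those of passing vehicle nuclei.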
